A study of Mus musculus with 4 samples.

Results

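The 5 genes described here, Cd163l1, 5830411N06Rik, Sox13, Tcrg-C2 and Trdj2, are genes known for their use in mouse gamma delta T cells, and each has 1 of the 14226 rows of a spleen transcriptome table. They were chosen by name with their levels in these same libraries already known, so their levels and fold changes are a description and carry no test. Messenger RNA was sequenced from whole spleen cell suspensions of C57BL/6N mice, with 2 biological replicates of each genotype. The vcS5 mice carry a transgene, labelled vcS5 +/T and named line1 in the library names, and the wt mice of the same strain are the comparison. The title of the series speaks of an activated STAT5, the transcription factor that carries signals from several cytokine receptors into the nucleus, and of peripheral T cell lymphoma. The promoter that drives the transgene and the age and sex of the mice are not given in the sources used here. Levels are FPKM, the fragments of a transcript scaled by its length and by the size of the library.

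Gamma delta T cells build their antigen receptor from a gamma and a delta chain instead of the alpha and beta chains of most T cells. In mice the gamma chain locus lies on chromosome 13, and the delta chain locus lies inside the alpha chain locus on chromosome 14, so that a rearrangement of the alpha chain removes the delta segments of that chromosome. Signals from the interleukin 7 receptor through STAT5 are known to open the mouse gamma chain locus for transcription and recombination. SOX13 is a transcription factor of early gamma delta thymocytes. Cd163l1, also called Scart1, and 5830411N06Rik, also called Scart2, encode membrane scavenger receptors described on mouse gamma delta T cells and related to the WC1 receptors of cattle.

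Stat5a, which encodes one of the STAT5 proteins, had 105 and 123 FPKM in the vcS5 libraries and 13.9 and 17.0 FPKM in the wt libraries, a 7.39-fold higher mean in vcS5 with an adjusted p of 0.00241 by limma, or 0.0532 without vcS5 replicate 2. The median FPKM over all rows was 12.2 and 12.6 in the vcS5 libraries and 12.2 and 12.5 in the wt libraries. Of all rows 653 were higher and 588 lower in vcS5 at an adjusted p under 0.05, and the median log2 change was 0.00125. The table lists 54 rows at 0 in both wt libraries and 33 at 0 in both vcS5 libraries, and 0 rows at 0 in a single library of a group. Markers of other spleen cells were summed as well. The 5 B cell markers summed to 1067 and 1033 FPKM in the vcS5 libraries and 2547 and 3105 FPKM in the wt libraries, and all 5 fell. The 4 neutrophil markers summed to 931 and 880 FPKM in vcS5 and 5569 and 1696 FPKM in wt, and 1 of them fell. The 6 measured macrophage and monocyte markers summed to 191 and 214 FPKM in vcS5 and 527 and 358 FPKM in wt, and 1 fell. The 6 erythroid markers summed to 656 and 2015 FPKM in vcS5 and 1307 and 1855 FPKM in wt, and the groups overlapped. No marker row was at 0, and the part of these cells in the results was not tested.

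The 5 genes did not move together. Cd163l1, 5830411N06Rik and Sox13 were higher in both vcS5 libraries than in either wt library, and Tcrg-C2 and Trdj2 were lower in both. For comparison, 26.9% of all rows had both vcS5 libraries above both wt libraries and 27.5% had both below, and nothing is read from these shares because the genes were chosen on this contrast. The constant region of the delta chain, Trdc, and those of the other gamma chains, Tcrg-C1, Tcrg-C3 and Tcrg-C4, have no row and were not analysed here. In RNA from a whole spleen, fewer cells of a type and less RNA per cell cannot be told apart.

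**Figure D1:**
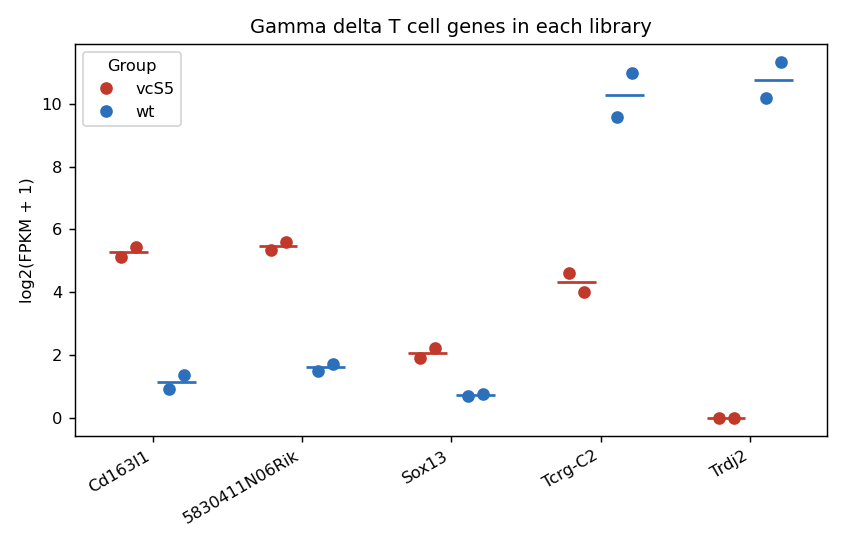
log2(FPKM + 1) of the 5 genes on the vertical axis, with 1 point for each library and a horizontal line at the mean of the 2 points of a group. The vcS5 points lie above the wt points for Cd163l1, 5830411N06Rik and Sox13 and below them for Tcrg-C2 and Trdj2, which is listed at 0 in both vcS5 libraries.

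Cd163l1 had 33.5 and 42.4 FPKM in the vcS5 libraries and 0.883 and 1.55 FPKM in the wt libraries. Both wt values lay close to the lower end of the table, and the lower vcS5 value lay far above the higher wt value. The means were 37.9 ± 6.28 FPKM in vcS5 and 1.22 ± 0.469 FPKM in wt (SD, n = 2 each), a 31.2-fold higher mean in vcS5. On the log2(FPKM + 1) scale, which understates the change of a gene this low in wt, the difference was 4.14.

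5830411N06Rik had 39.7 and 47.5 FPKM in the vcS5 libraries and 1.83 and 2.26 FPKM in the wt libraries. The means were 43.6 ± 5.54 FPKM in vcS5 and 2.04 ± 0.301 FPKM in wt (SD, n = 2 each), a 21.3-fold higher mean in vcS5, or a log2 difference of 3.87. The genes for these receptors are neighbours on the plus strand of chromosome 7 and had similar levels. In mm10 the Cd163l1 row covers chr7:140218032-140231145 and the 5830411N06Rik row covers chr7:140247201-140300732, with 16055 bases between them. The ratio of Cd163l1 to 5830411N06Rik was 0.844 and 0.892 in the vcS5 libraries and 0.482 and 0.685 in the wt libraries, so Cd163l1 was the lower of the pair in every library.

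The promoters of both genes are shown because the genes lie side by side and moved together. The sequences run from 250 bases before to 50 bases after an annotated start, on the plus strand of GRCm38.p6. They lie at chr7:140218017-140218316 for Cd163l1 and chr7:140247051-140247350 for 5830411N06Rik, the first of its 3 overlapping windows. The Cd163l1 window surrounds the start of the gene in GENCODE vM21. RefSeq starts the span of Cd163l1 21.049 kb earlier, and no window there was searched. Capitals would mark the palindromic pattern TTCNNNGAA, which STAT5 is known to bind and which reads the same on both strands.
Cd163l1: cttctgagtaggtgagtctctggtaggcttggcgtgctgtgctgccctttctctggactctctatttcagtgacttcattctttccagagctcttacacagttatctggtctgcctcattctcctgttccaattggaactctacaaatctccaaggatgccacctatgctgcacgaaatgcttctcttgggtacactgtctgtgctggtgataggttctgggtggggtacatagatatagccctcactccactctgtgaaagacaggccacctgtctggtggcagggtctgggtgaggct
5830411N06Rik: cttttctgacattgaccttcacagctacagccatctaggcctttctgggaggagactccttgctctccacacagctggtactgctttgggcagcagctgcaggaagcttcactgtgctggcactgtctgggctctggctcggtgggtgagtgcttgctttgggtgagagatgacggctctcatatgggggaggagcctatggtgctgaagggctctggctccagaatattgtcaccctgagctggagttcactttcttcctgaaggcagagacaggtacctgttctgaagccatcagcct
The pattern had 0 matches in the Cd163l1 window and 0 in each of the 3 windows of 5830411N06Rik. It was present in 2726 of the 32851 promoters of the reference table, or 8.3%. The absence of these letters from a window says nothing of whether the factor binds there.

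Before the Cd163l1 row the table holds 4 short rows without a symbol that lie inside the span RefSeq gives to Cd163l1, which starts 21.049 kb before the start of the gene in GENCODE vM21. They were looked up after their values had been seen, so they are given without a test. The row at chr7:140206241-140206641 had 1.52 and 4.13 FPKM in the vcS5 libraries, and the row at chr7:140207910-140209160 had 2.29 and 1.87 FPKM. The row at chr7:140213607-140213876 had 10.1 and 6.59 FPKM in the vcS5 libraries, and the row at chr7:140214939-140215560 had 0.719 and 3.51 FPKM. All 4 are listed at 0 in both wt libraries. No row of the deposited table has a mean FPKM of 1 or less. Rows at 0 in wt could therefore be present only through their vcS5 values. The row at chr7:140213607-140213876 had the highest level of the 4 in each vcS5 library, still below Cd163l1 itself.

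**Figure D2:**
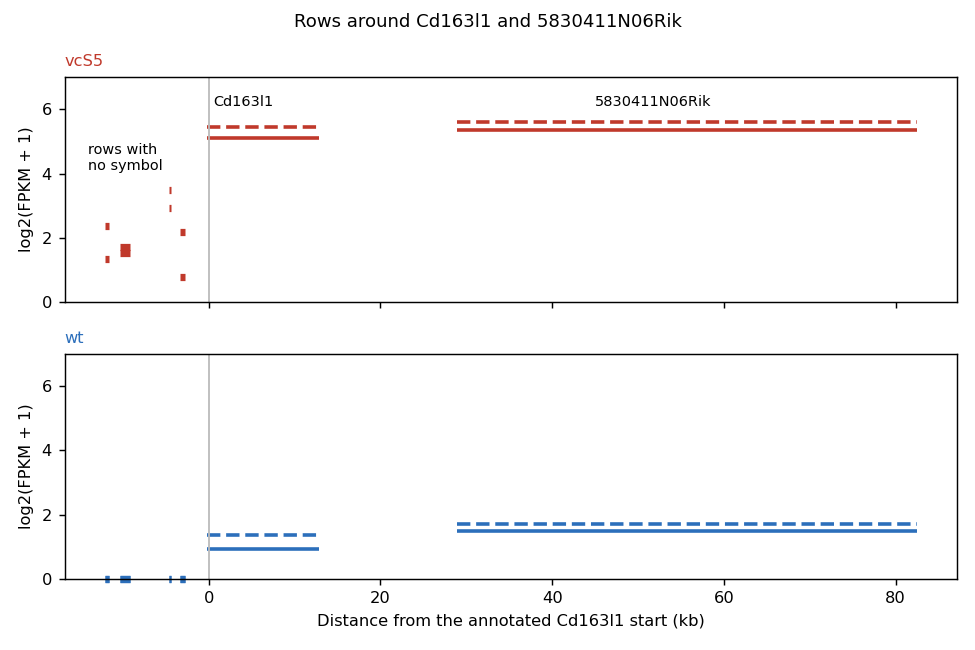
log2(FPKM + 1) of each row around Cd163l1 against distance in kb from the GENCODE start of the gene, with vcS5 in the upper panel and wt in the lower panel. Solid lines are replicate 1 and dashed lines replicate 2, each drawn over the span of its row, and short marks are the 4 rows without a symbol, which are at 0 in wt.

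Sox13 had 2.75 and 3.63 FPKM in the vcS5 libraries and 0.624 and 0.685 FPKM in the wt libraries. It was the lowest of the 3 genes that were higher in vcS5, and its groups were separated by a gap wider than the spread within either. The means were 3.19 ± 0.620 FPKM in vcS5 and 0.655 ± 0.0435 FPKM in wt (SD, n = 2 each), a 4.87-fold higher mean in vcS5 and a log2 difference of 1.33. Every row of the deposited table has a mean above 1 FPKM over the 4 libraries, and Sox13 averaged 1.92 FPKM, with both wt values below 1. The row covers chr1:133382303-133424377 on the minus strand.

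The Sox13 promoter, GRCm38.p6 chr1:133424163-133424462 on the minus strand and from RefSeq, is shown because it is the one window among these genes with a match to TTCNNNGAA, given in capitals.
Sox13: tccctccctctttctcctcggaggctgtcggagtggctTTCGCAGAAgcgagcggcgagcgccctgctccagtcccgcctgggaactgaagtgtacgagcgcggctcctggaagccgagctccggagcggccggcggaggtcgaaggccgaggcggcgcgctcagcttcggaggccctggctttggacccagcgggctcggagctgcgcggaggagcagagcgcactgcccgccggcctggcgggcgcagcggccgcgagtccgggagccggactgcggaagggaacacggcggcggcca
The match, TTCGCAGAA, begins 212 bases before the start on which the window is placed. The window also holds the GENCODE vM21 start of the gene, chr1:133424377, so this distance depends on the annotation. TTCGCAGAA is a match of letters to a pattern held by 8.3% of promoters, and no binding was measured here.

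The levels of these genes were also set against the 4 CD3 chains Cd3d, Cd3e, Cd3g and Cd247, which every T cell uses to carry its receptor to the surface. The CD3 chains summed to 795 and 1058 FPKM in the vcS5 libraries and 291 and 404 FPKM in the wt libraries, a 2.67-fold higher mean in vcS5. Per 1000 FPKM of CD3 chains, Cd163l1 had 42.1 and 40.1 FPKM in the vcS5 libraries and 3.04 and 3.83 FPKM in the wt libraries, a 12.0-fold higher mean. On the same scale 5830411N06Rik had 49.9 and 44.9 FPKM in vcS5 and 6.30 and 5.59 FPKM in wt, a 7.98-fold higher mean. Both scavenger receptor genes thus differed by more than the CD3 chains did, and their vcS5 libraries lay closer together on this scale than in FPKM. Sox13 had 3.46 and 3.43 FPKM per 1000 FPKM of CD3 chains in vcS5 and 2.15 and 1.70 FPKM in wt, a 1.79-fold higher mean. The share of gamma delta cells among the T cells was not measured.

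Tcrg-C2, the constant region of one of the mouse gamma chains, went the other way. Its row had 23.5 and 15.2 FPKM in the vcS5 libraries and 765 and 1999 FPKM in the wt libraries. The wt libraries differed from each other by more than the whole vcS5 level, yet the lower of them stood far above the higher vcS5 library. The means were 19.3 ± 5.90 FPKM in vcS5 and 1382 ± 872 FPKM in wt (SD, n = 2 each), so the wt mean was 71.4 times the vcS5 mean, and the log2 difference, vcS5 minus wt, was -5.96. The row covers chr13:19304677-19311304 on the minus strand. It holds most of the constant region, chr13:19304649-19307551 in GENCODE vM21, and the joining segment Trgj2, and it ends at the base where that segment starts. Mouse gamma constant regions are close in sequence, so the counting may have divided reads among copies.

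Trdj2, a joining segment of the delta chain, is listed at 0 FPKM in both vcS5 libraries and had 1158 and 2580 FPKM in the wt libraries. The wt values averaged 1869 ± 1006 FPKM (SD, n = 2), and a fold against 0 is not given. The segment itself is 59 bases long, against reads of 50 bases. The row is one of 3 that share the span chr14:54122841-54143837, the other two being the Trdj1 row and a row without a symbol.

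Joining segments add a short stretch to a receptor chain and carry a motif of phenylalanine and glycine that closes the antigen binding loop. The segments of these rows are shown because their length sets how a level in FPKM is computed. They are from GENCODE vM21 on GRCm38, at chr14:54136779-54136837 on the plus strand for Trdj2, chr14:54123138-54123188 on the plus strand for Trdj1 and chr13:19311245-19311304 on the minus strand for Trgj2. Capitals mark the joining segment motif, read on the coding strand as a TTT codon, a codon that starts with G, any codon and a GGN codon, which 50 of 70 annotated joining segments hold, or 71.4%.
Trdj2: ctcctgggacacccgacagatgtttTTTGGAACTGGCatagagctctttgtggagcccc
Trdj1: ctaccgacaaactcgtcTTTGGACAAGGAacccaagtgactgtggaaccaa
Trgj2: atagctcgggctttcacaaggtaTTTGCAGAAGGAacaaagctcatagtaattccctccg
Each of the 3 segments holds the motif once.

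Other joining segments of the same locus show how such short rows behaved. Of the 16 rows for alpha chain joining segments, 6 are listed at 0 in both wt libraries and 0 in the vcS5 libraries, and values above 0 ran from 7.75 to 9798 FPKM. In vcS5 replicate 2, 9 of the 16 rows shared their exact level with another of them. Traj58 had 1321 and 701 FPKM in the vcS5 libraries and is listed at 0 in wt, and Traj56, a row of the same 63 bases, had 668 and 1401 FPKM in vcS5 and is also listed at 0 in wt. Traj56 over Traj58 was 2.0 in vcS5 replicate 2, and Traj58 over Traj56 was 1.977 in vcS5 replicate 1. Levels in these rows are thus spaced in steps, and the part that such steps play in the values of Trdj2 was not tested. Traj7, one of the 16, differed in the same direction as Trdj2, with 7.75 and 8.76 FPKM in the vcS5 libraries and 325 and 468 FPKM in the wt libraries.

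**Figure D3:**
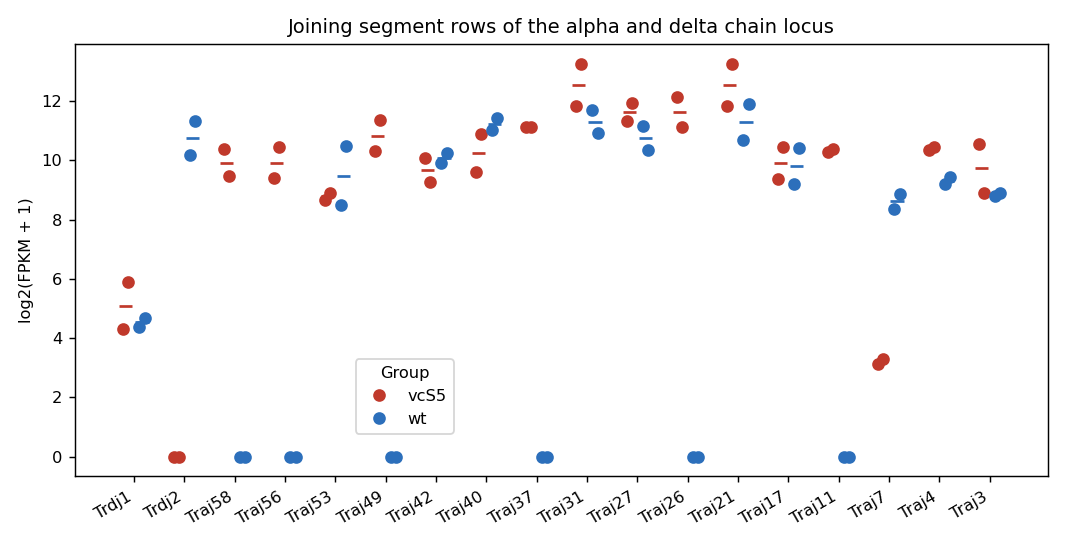
log2(FPKM + 1) of each delta and alpha chain joining segment row of chromosome 14, in genome order, with 1 point for each library and a line at the group mean. Trdj2 is at 0 in both vcS5 libraries, and 6 alpha chain segments are at 0 in both wt libraries.

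Besides Tcrg-C2 and Trdj2, the table holds 5 rows named for gamma or delta receptor segments, and 0 of them passed an adjusted p of 0.05 by limma, against 8.72% of all rows. At an unadjusted p under 0.05 the count was 1, against 25.3% of all rows. By q-values under 0.05 in the authors' deposited table it was 2, both higher in vcS5, against 11.5% of all rows, or 5.31% counting those higher in vcS5. The reference annotation lists 24 such genes, of which 8 have a row by symbol or identifier. The measured part of the gamma and delta loci is therefore small.

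Among gamma chain variable segments, Trgv2 had 29.4 and 19.4 FPKM in the vcS5 libraries and 5.61 and 10.3 FPKM in the wt libraries. The groups did not overlap and the vcS5 mean was 3.07 times the wt mean, but the log2 change of 1.53 (SE 0.327) had an adjusted p of 0.0541 by limma. Trgv2 lies on the minus strand of chromosome 13 at chr13:19336478-19337187, and Tcrg-C2 is the constant region used with it in rearranged gamma chains. The pair therefore had values in opposite directions. Tcrg-V4 had 7.79 and 12.4 FPKM in vcS5 and 7.63 and 8.75 FPKM in wt, with a log2 change of 0.24 (SE 0.240) and an adjusted p of 0.606 by limma. A row named Gm16602, whose identifier belongs to Tcrg-V1, had 1.99 and 2.67 FPKM in vcS5 and 8.84 and 3.53 FPKM in wt. Its groups did not overlap, and its log2 change of -1.01 (SE 0.393) had an adjusted p of 0.194 by limma.

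Among delta chain rows, Trdv5 had 6.03 and 45.9 FPKM in the vcS5 libraries and 6.39 and 5.07 FPKM in the wt libraries. Its log2 change of 1.44 (SE 0.867) had an adjusted p of 0.378 by limma, and vcS5 replicate 2 decides it, since the change was 2.81 (adjusted p = 0.0478) without vcS5 replicate 1 and 0.07 without vcS5 replicate 2. In these fits the one remaining vcS5 library is assumed to vary like the wt libraries. Trdv5 is the inverted variable segment that lies behind the delta constant region on the opposite strand, and the end of it with the lower coordinate overlaps Trdc in GENCODE vM21. The libraries do not mark strand, so reads of the overlapping genes cannot be told apart there.

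Trdj1 had 18.6 and 58.2 FPKM in the vcS5 libraries and 19.9 and 24.5 FPKM in the wt libraries, with a log2 change of 0.56 (SE 0.519) and an adjusted p of 0.578 by limma. Its row carries the identifiers of both Trdj1 and Trdj2 and reaches into Trdc. Trdv1 had 1.81 and 4.34 FPKM in vcS5 and 1.08 and 3.04 FPKM in wt, with a log2 change of 0.42 (SE 0.451) and an adjusted p of 0.642 by limma. A row without a symbol at chr14:54144105-54146229, which lies almost wholly inside the RefSeq span of Trdc, had 15.6 and 31.7 FPKM in vcS5 and 14.3 and 13.4 FPKM in wt. Its log2 change of 0.65 (SE 0.331) had an adjusted p of 0.2996 by limma, and it was looked up for its position. Of the 5 rows that are named for delta segments or lie in the Trdc span, Trdj2 aside, 4 were highest in vcS5 replicate 2. Delta chain RNA outside the Trdj2 row was thus measured in both groups, and the levels in vcS5 replicate 1 lay near those of the wt libraries.

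**Figure D4:**
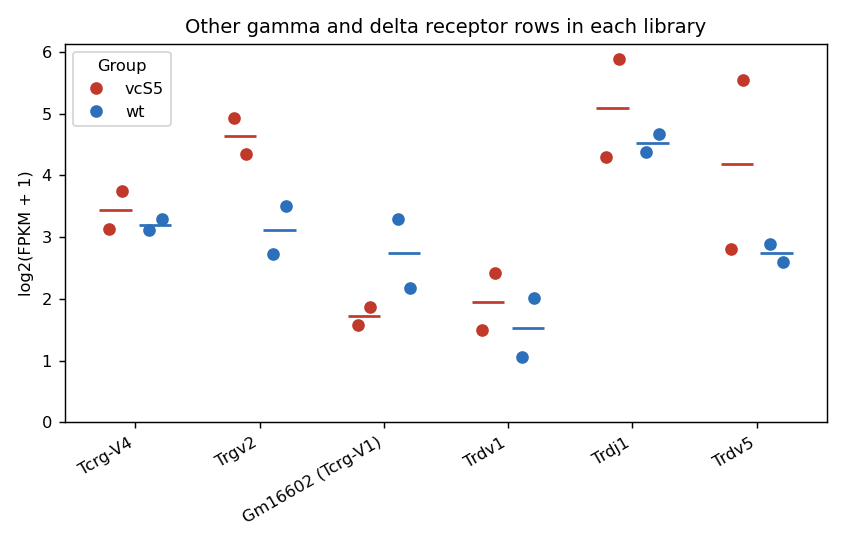
log2(FPKM + 1) of the 5 other gamma and delta receptor rows and of Gm16602, with 1 point for each library and a line at the group mean. Trgv2 is higher and Gm16602 lower in both vcS5 libraries, while the groups overlap for Tcrg-V4, Trdv1, Trdj1 and Trdv5.

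The wider gene programme of gamma delta T cells was described with 11 lists that hold 113 distinct rows. Of these rows 37 rose and 15 fell by limma, or 46.0% called, against 8.72% of all rows (4.59% higher and 4.13% lower). With any one library left out, 1 to 14 of them were higher and 0 lower. The lists were drawn up with results of these data known. Many of their genes are shared with alpha beta T cells or natural killer cells, so the counts describe the genes and not gamma delta cells. Beside these counts stand the marker sums of those cells. The 5 measured alpha beta T cell markers summed to 1754 and 3130 FPKM in the vcS5 libraries and 2473 and 693 FPKM in the wt libraries, with 3 that rose and 1 that fell. Without Trac, whose row varied most within each group, the other 4 summed to 1315 and 1501 FPKM in vcS5 and 304 and 413 FPKM in wt. The 2 measured markers of natural killer T cells summed to 71.9 and 58.8 FPKM in vcS5 and 90.7 and 91.0 FPKM in wt, and 0 passed. The rows of the 4 natural killer cell markers summed to 491 and 485 FPKM in vcS5 and 117 and 114 FPKM in wt. Of these rows 3 rose and 1 fell. The counts are of rows and not of genes, since at least 1 of the 4 genes has more than 1 row. The row that fell was Ncr1, which encodes an activating receptor that defines natural killer cells. Ncr1 had 0.635 and 0.776 FPKM in vcS5 and 13.7 and 15.1 FPKM in wt. Klrb1c, another of these markers, was also lower in both vcS5 libraries, with 8.12 and 5.62 FPKM against 11.9 and 13.9 FPKM in wt. Its limma log2 change of -0.84 had an adjusted p of 0.0757. Most of the natural killer sum is Nkg7, with 382 and 396 FPKM in vcS5 and 76.5 and 71.1 FPKM in wt. The part of these cells in the list results was not tested. Of the 40 rows past the threshold that are named here, 2 to 15 still passed with one library left out, and 2 of them, Il18r1 and Traj58, passed whichever library was left out. The Traj58 row has no spread in wt, where it is listed at 0, so this says nothing of its stability.

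**Figure D5:**
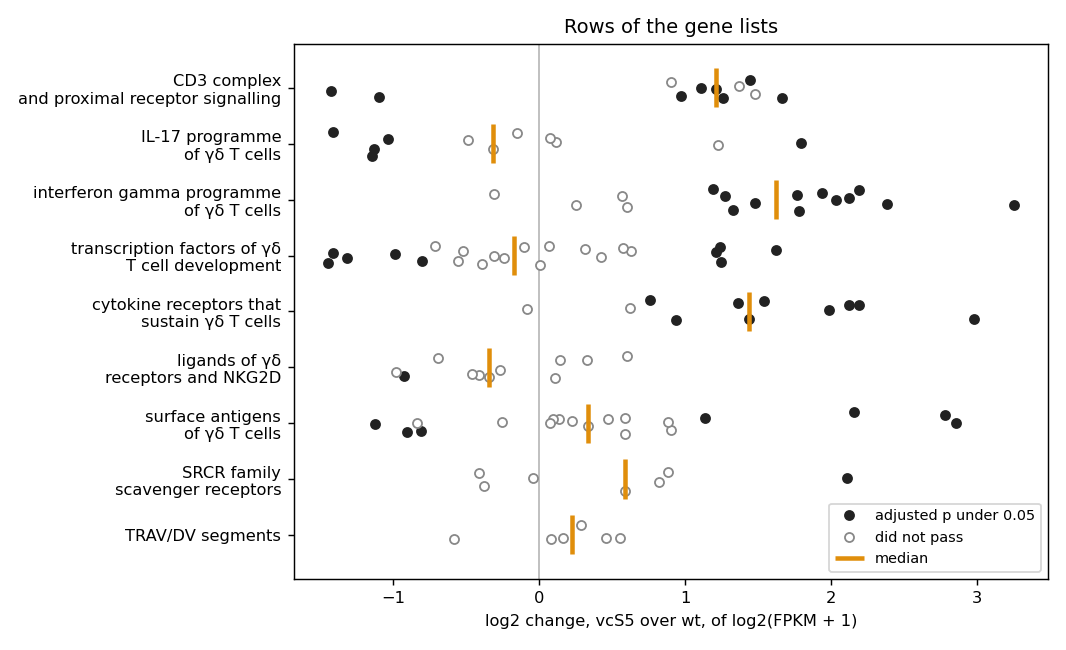
log2 change of log2(FPKM + 1), vcS5 over wt, for each row of 9 gene lists, with filled points for rows at an adjusted p under 0.05 by limma, open points for the others and a bar at the median of the list. Most rows of the interferon gamma and cytokine receptor lists lie right of 0, and the IL-17 list has 4 filled points left of 0 and 1 right of it.

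Of 11 genes of the CD3 complex and proximal receptor signalling, 6 rose and 2 fell, with a median log2 change of 1.21. The CD3 delta chain gene Cd3d had 174 and 198 FPKM in vcS5 and 52.0 and 64.4 FPKM in wt, a limma log2 change of 1.66 (SE 0.172, adjusted p = 0.0108). Cd3e rose by 1.44 on the log2 scale, Cd247, the zeta chain, by 1.11, the adaptor gene Lat by 1.26 and the receptor kinase gene Zap70 by 1.21. Cd3g had a log2 change of 1.37 and the kinase gene Lck one of 1.48, and both missed the threshold, with adjusted p of 0.0767 for Cd3g and 0.0522 for Lck, which became 0.0408 for Lck under quantile normalization. The genes that fell were Syk, a kinase of B cell and Fc receptors, by 1.43, and Fcer1g, the Fc receptor gamma chain, by 1.10.

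Of the 18 genes listed for the interleukin 17 programme, 11 had a row. Of these 1 rose and 4 fell, and the median log2 change was -0.32. The chemokine receptor gene Ccr2 had 57.7 and 49.7 FPKM in vcS5 and 21.4 and 10.1 FPKM in wt, a limma log2 change of 1.79 (SE 0.347, adjusted p = 0.0418). That call was lost under quantile normalization (adjusted p = 0.0537), without the variance trend (0.0508), and without wt replicate 2 (0.0791), vcS5 replicate 1 (0.183) or vcS5 replicate 2 (0.179). Blk, a kinase gene that B cells use too, fell by 1.41 on the log2 scale, the tetraspanin gene Cd9 by 1.15, the chemokine receptor gene Ccr6 by 1.13 and the transcription factor gene Sox4 by 1.04. The activation antigen gene Cd44 had a log2 change of 0.12 (adjusted p = 0.696). The genes Il17a, Il17f, Il22, Il23r, Il1r1, Zbtb16 and Il17re had no row and were not analysed here. All 5 B cell markers fell in the same libraries as Blk, Cd9, Ccr6 and Sox4, and their part in these falls was not tested.

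Of the 16 genes listed for the interferon gamma programme, all had a row, 12 rose and 0 fell, with a median log2 change of 1.63. The chemokine gene Ccl5 had 2132 and 2382 FPKM in vcS5 and 287 and 193 FPKM in wt, a limma log2 change of 3.26 (SE 0.254, adjusted p = 0.00529). Nkg7, a granule protein gene, rose by 2.38 on the log2 scale, the transcription factor gene Eomes by 2.20 (SE 0.178) and Il2rb, the beta chain of the interleukin 2 and 15 receptors, by 2.12. Tbx21, which encodes T-bet, rose by 1.48, and Ifng itself had 25.0 and 21.9 FPKM in vcS5 and 7.72 and 4.80 FPKM in wt, a log2 change of 1.78. Slamf7, a receptor gene of natural killer cells and activated lymphocytes, had a log2 change of 0.25 and an adjusted p of 0.31. Whether the interferon gamma and interleukin 17 lists differed from each other was not tested.

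Of the 11 cytokine receptor genes, 9 rose and 0 fell, with a median log2 change of 1.44. The interleukin 18 receptor gene Il18r1 had 136 and 129 FPKM in vcS5 and 16.0 and 15.9 FPKM in wt, a limma log2 change of 2.98 (SE 0.128, adjusted p = 0.000852). Its partner Il18rap rose by 1.98 on the log2 scale. Il7r, the receptor for interleukin 7, had 174 and 200 FPKM in vcS5 and 39.3 and 41.0 FPKM in wt, a log2 change of 2.19. Il2ra, the alpha chain of the interleukin 2 receptor, rose by 1.54. The common gamma chain gene Il2rg had a log2 change of 0.62 and an adjusted p of 0.139.

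Of the 22 transcription factor genes of gamma delta T cell development, 4 rose and 5 fell, with a median log2 change of -0.17. The genes that rose included Gata3 by 1.62, Bcl11b by 1.24 and Tcf7 by 1.21 on the log2 scale, all of which T cells of both lineages use. Egr1 fell by 1.45, Hes1, a target of Notch signalling, by 1.42, Egr3 by 1.32 and Id3 by 0.80. Egr and Id3 genes are known to be induced by strong gamma delta receptor signals in thymocytes, and B cells express them too. Klf2, a regulator of T cell trafficking, had a log2 change of 0.07 (adjusted p = 0.900), and its sign turned with single libraries left out.

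Of 19 measured surface antigen genes 4 rose and 3 fell, with a median log2 change of 0.34. Cd8a had 391 and 445 FPKM in vcS5 and 51.1 and 62.9 FPKM in wt, a limma log2 change of 2.86 (SE 0.174, adjusted p = 0.00259), and Cd8b1, whose product pairs with CD8 alpha on alpha beta T cells, rose by 2.78. Thy1 rose by 2.16 and the costimulatory receptor gene Cd28 by 1.14, while Cd4 fell by 0.81. Cd8a, Cd8b1 and Cd4 are also among the alpha beta T cell markers summed above. Ptprc, which encodes CD45, had a log2 change of 0.34 (adjusted p = 0.269). Of the 3 alpha beta constant regions listed, 2 had a row. Trbc2 rose by 1.22 (SE 0.219, adjusted p = 0.0351 by limma), while Trac had 438 and 1629 FPKM in vcS5 and 2168 and 280 FPKM in wt, a log2 change of 0.12 (adjusted p = 0.966) that became -0.14 after quantile normalization. Of 6 variable segments that can join either alpha or delta chains, 0 passed, with a median log2 change of 0.22, and Trav21-dv12 had a log2 change of 0.08 (adjusted p = 0.908).

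Of 14 other scavenger receptor genes of the cysteine-rich family and its relatives, 7 had a row, 1 rose and 0 fell, with a median log2 change of 0.59. The one that rose, the serine protease gene Prss12, had 11.3 and 12.9 FPKM in vcS5 and 1.64 and 2.43 FPKM in wt, a limma log2 change of 2.11 (SE 0.197, adjusted p = 0.00864). The T cell antigen gene Cd6 had a log2 change of 0.88 and an adjusted p of 0.0548. Of 12 other SOX genes 1 had a row, Sox4, which had 1.31 and 1.17 FPKM in vcS5 and 3.73 and 3.48 FPKM in wt, the opposite direction to Sox13. The list of 19 genes for ligands of gamma delta receptors or NKG2D also holds the cytokine genes Il7 and Il15. Of these 19 genes, 10 had 11 rows, 0 rose and 1 fell, with a median log2 change of -0.34. The one that fell was Cd1d1, by 0.93 on the log2 scale, and the T22 ligand gene H2-T22 had a log2 change of 0.33 (adjusted p = 0.296).

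The nearest rows with another symbol on each side of the 5 were compared as well. Distances ran from 4.825 kb, for Trdv5 from Trdj2, to 622 kb, for Bet1l from Cd163l1. A row counted here thus need not be the adjacent gene. Of 16 neighbouring rows, 2 rose and 0 fell, against 4.59% and 4.13% of all rows. Plekha6, the measured neighbour of Sox13 on one side, had 3.60 and 4.35 FPKM in vcS5 and 0.804 and 0.655 FPKM in wt, a limma log2 change of 1.52 (SE 0.199, adjusted p = 0.0170). The other was Traj58, the joining segment row described above (adjusted p = 0.000277 by limma), which has no fold because it is listed at 0 in wt. Since no row has a mean FPKM of 1 or less, Traj58 could be present only through its vcS5 values. It also has no spread in wt, so nothing is read from its call or from its place in the count.

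Receptor segments, the 5 genes themselves and rows with no symbol or with symbols starting Gm, Mir or Snor or ending Rik were left out of a search for similar profiles. Of the rows searched, those whose profile over the 4 libraries was nearest to Cd163l1 were Drc1, Gpr15 and Myo6, at Euclidean distances of 0.208, 0.483 and 0.789 on the centred log2(FPKM + 1) scale. The same genes were nearest to 5830411N06Rik, at 0.320 for Drc1, 0.209 for Gpr15 and 0.476 for Myo6. Gpr15, a homing receptor gene of T cells, had 42.2 and 54.6 FPKM in the vcS5 libraries and 2.51 and 3.16 FPKM in the wt libraries. Drc1, a gene of the dynein regulatory complex of cilia, had 22.4 and 28.4 FPKM in vcS5 and 0.339 and 1.06 FPKM in wt, and Myo6, a myosin gene, had 44.8 and 49.8 FPKM in vcS5 and 3.52 and 2.65 FPKM in wt. Nearest to Sox13 were Gtf2i at 0.0265, Celsr1 at 0.0394 and Ctla2b at 0.0399. For Tcrg-C2 and Trdj2 the nearest row searched was n-R5s21, at 1.76 for Tcrg-C2 and 6.25 for Trdj2. With 4 libraries in 2 groups, nearness says little beyond the size of the group difference and the level of each replicate.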

How the data were processed

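Total RNA of spleen cell suspensions was made into unstranded TruSeq v2 libraries and read as 50 base single ends, per the labels' protocols. The deposited table holds 1 FPKM column per library, per the file headers, beside p-values and q-values of the authors' own comparison. Bowtie2 2.1.0, TopHat2 2.0.9, Cufflinks, Cuffdiff 2.1.1 and mm10 are named in the submitters' processing notes. No row of the deposited table has a mean FPKM of 1 or less, and the sources used here do not give the rule behind this. Counts were not analysed here, so depth is unknown and no counting intervals are given.

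Each FPKM was transformed as log2(FPKM + 1), where 1 is the pseudocount, and vcS5 was compared with wt by limma 3.58.1 in R 4.3.3 with a variance trend, Benjamini-Hochberg adjustment over all 14226 rows and a threshold of 0.05. The fit had 2 residual degrees of freedom and a prior of 3.17. The p-values thus rest on the spread between these samples in a row and on the spread over all rows. The fit was tested on simulated data. Row identifiers matched the reference for 12571 of 12810 rows that have one.

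The members and lists were chosen with earlier results of these data known. Named from each list were up to 4 genes with the largest changes past the threshold and no overlap between groups, and the highest gene that did not pass. Cd3g, Cd247, Zap70, Fcer1g, Cd4, Tbx21, Ifng, Il2ra, Bcl11b, Tcf7, Id3, Gm16602, Ncr1 and the joining segment rows were named after their values were seen. Klrb1c was likewise named after its values were seen. Alternatives were pseudocounts of 0.1 and 5, a mean of at least 5 FPKM, no variance trend, quantile normalization, a replicate block, each library left out, and the authors' q-values. Promoters came from RefSeq and segments from GENCODE vM21.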

Additional observations from a re-analysis of the deposited data

How the results depend on the processing

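With 2 libraries in each group the number of calls depended most on single libraries. Over all rows 1241 were called, and 71 to 245 with one library left out (52 to 164 higher, 19 to 81 lower). Of the list rows 1 to 14 were then called (1 to 14 higher and 0 to 0 lower), and of the 5 other receptor rows 0 to 1. The 1 was Trdv5 without vcS5 replicate 1. The authors' deposited q-values called 2 of those receptor rows, and 11.5% of all rows. Of the 40 named rows past the threshold, 13 passed when wt replicate 1 was dropped, 15 when wt replicate 2 was, 6 for vcS5 replicate 1 and 2 for vcS5 replicate 2, and Il18r1 and Traj58 (listed at 0 in wt) passed in each case. None of the 40 turned sign under any alternative run. Of them, 32 passed under every alternative limma fit that kept all libraries and held their row. The other 8 were Ccr2 (quantile normalization and no variance trend), Cd247 (no variance trend), Id3 and Cd4 (no variance trend and block), and Fcer1g, Sox4, Gata3 and Cd1d1 (block). Calls were gained for Lck (adjusted p = 0.0408) and Cd6 (0.0408) under quantile normalization, and for Lck (0.0225) and Cd3g (0.0242) under the block.

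The samples share replicate numbers, with a correlation of 0.176 between the deviations of same-numbered samples, and nothing else pairs them. With the replicate number as a block, 1028 rows were called, 579 higher and 449 lower, and 8 list rows were lower against 15. Pseudocounts of 0.1 and 5 gave log2 differences of 4.89 and 2.78 for Cd163l1, 4.35 and 2.78 for 5830411N06Rik, and 2.11 and 0.53 for Sox13. Some values that missed the threshold turned sign with one library left out, over ranges of -1.36 to 1.59 for Trac (and -0.14 under quantile normalization), -0.062 to 0.55 for Tcrg-V4, -0.061 to 0.90 for Trdv1, -0.24 to 1.356 for Trdj1, -0.36 to 0.52 for Trav21-dv12 and -0.19 to 0.32 for Klf2. The causes were not tested. Sox13 in wt lay below 1 FPKM, where an unknown depth limits precision.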
